A study of Homo sapiens with 6 samples.

Results

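The passenger strands of the let-7 microRNAs are the 3p arms of the let-7 hairpins, and 10 of them were followed here, chosen by name from the 2656 mature miRNAs in the count table. They are hsa-let-7a-3p, hsa-let-7a-2-3p, hsa-let-7b-3p, hsa-let-7c-3p, hsa-let-7d-3p, hsa-let-7e-3p, hsa-let-7f-1-3p, hsa-let-7f-2-3p, hsa-let-7g-3p and hsa-let-7i-3p, named below without the species prefix, and they come from 11 hairpins on 8 chromosomes. All 10 had at least 1 count, and 4 had enough counts to be tested. The cells were K562, a human erythroleukaemia line, as an azacitidine-resistant form grown in rising drug concentrations for several months and as an azacitidine-sensitive form, with 3 small RNA libraries each that the labels call biological replicates. Azacitidine is a cytidine analogue that traps DNA methyltransferases and so lowers DNA methylation. Both forms were grown in the same RPMI medium with serum, and library names mark both as NT, which is not spelled out. The labels name 1 resistant form and no separate selections, and do not say whether the drug was present at harvest. The p-values thus set the group difference against the spread between these libraries, and do not extend to other resistant selections.

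A let-7 hairpin is cut by Drosha and Dicer into a duplex with a 5p and a 3p arm. The 5p arm is the guide that is kept in Argonaute and represses RAS, MYC, HMGA2 and LIN28 transcripts. The 3p arm is mostly degraded, so its level is low and depends both on how much of the hairpin is made and on how fast the strand is lost. LIN28 proteins block the processing of let-7 hairpins in stem cells and many tumours. Several let-7 loci make the same or almost the same 5p arm, and the 3p arms differ more. The same let-7a-5p is made by MIRLET7A1, MIRLET7A2 and MIRLET7A3, on chromosomes 9, 11 and 22. The same let-7f-5p is made by MIRLET7F1 and MIRLET7F2, on chromosomes 9 and X.

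The mature sequences below, from the RefSeq table of build GRCh38.p14, show what tells the loci apart. They are written 5′ to 3′ with the seed (bases 2 to 8) in capitals, and 9 of the 10 members matched. let-7f-2-3p is given by name.
let-7a-3p: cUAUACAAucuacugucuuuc
let-7b-3p: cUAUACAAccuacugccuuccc
let-7f-1-3p: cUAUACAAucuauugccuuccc
let-7d-3p: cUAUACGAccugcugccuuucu
let-7e-3p: cUAUACGGccuccuagcuuucc
let-7c-3p: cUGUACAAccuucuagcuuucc
let-7a-2-3p: cUGUACAGccuccuagcuuucc
let-7g-3p: cUGUACAGgccacugccuugc
let-7i-3p: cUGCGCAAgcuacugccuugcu
let-7a-5p: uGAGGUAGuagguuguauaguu
let-7c-5p: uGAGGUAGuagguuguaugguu
The last 2 lines are guide strands, shown for how alike they are. Over the first 21 bases, let-7a-5p and let-7c-5p differed at 1 base. Of the 28 pairs among the 8 let-7 guide strands, 4 differed at 1 base, and the median was 3 mismatches. Among the 9 passenger strands with a sequence no pair was closer than 2 mismatches, and the median over the 36 pairs was 6. The pairs at 2 mismatches were let-7b-3p with let-7f-1-3p, let-7a-2-3p with let-7c-3p, and let-7a-2-3p with let-7e-3p. All 8 guide strands had the seed GAGGUAG and 0 of the passenger strands did. The seed UAUACAA was shared by let-7a-3p, let-7b-3p and let-7f-1-3p, and UGUACAG by let-7a-2-3p and let-7g-3p, while each of the other 4 members with a sequence had a seed of its own.

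let-7a-3p is the exception to the reading of 1 strand as 1 locus. It is made from MIRLET7A1 on chromosome 9 and from MIRLET7A3 on chromosome 22, whose hairpins are shown here with both mature arms in capitals.
MIRLET7A1: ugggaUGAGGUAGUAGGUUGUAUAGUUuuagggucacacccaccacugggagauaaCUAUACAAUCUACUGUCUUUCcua
MIRLET7A3: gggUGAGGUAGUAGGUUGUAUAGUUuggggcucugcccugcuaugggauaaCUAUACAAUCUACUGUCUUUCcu
The arms are the same in both and the loops differ, so counts of let-7a-3p cannot be split between the chromosomes. On GRCh38, MIRLET7A1 lies on the plus strand of chromosome 9 at 94175957 to 94176036, 310 bases before MIRLET7F1 (94176347 to 94176433) and 2797 bases before MIRLET7D (94178834 to 94178920), all in an intron of a long non-coding RNA gene of the GENCODE annotation. MIRLET7A3 lies on the plus strand of chromosome 22 at 46112749 to 46112822, 863 bases before MIRLET7B (46113686 to 46113768), and both overlap exons of MIRLET7BHG.

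Library totals ranged from 3291500 to 10644739 counts in resistant and from 5660055 to 12563945 counts in sensitive cells. Resistant replicate 3 had the lowest total and stood apart from the other libraries over the whole table, with log2 CPM (counts scaled to a common library size by trimmed mean of M values factors) that deviated from the mean of resistant replicates 1 and 2 by a median of -0.31 over 768 tested miRNAs (quartiles -1.78 and 1.06). The fold changes and ratios of passenger strands are given with and without it. The 4 erythroid marker miRNAs and the 3 of blood cells at large had counts in every library. Summed, the erythroid markers had 10393 to 63519 CPM in resistant and 5208 to 7106 CPM in sensitive libraries, mostly from 1 of them, miR-486-5p, at 9582 to 63305 CPM in resistant and 4744 to 6215 CPM in sensitive libraries. The log2 fold changes of the other 3 were -0.94 for miR-451a, -0.41 for miR-144-3p and 0.00 for miR-144-5p, and none of the 4 passed with all libraries (edgeR adjusted p = 0.130 to 0.999). Without resistant replicate 3, miR-486-5p rose (1.05 on the log2 scale, SE 0.20, edgeR adjusted p = 0.00218) and the other 3 did not pass. The blood cell markers had 1350 to 10466 CPM in resistant and 11649 to 13054 CPM in sensitive libraries. None of them passed with all libraries. When resistant replicate 3 was left out, miR-223-3p fell (-0.99 on the log2 scale, SE 0.23, edgeR adjusted p = 0.00733), and miR-142-3p and miR-142-5p did not pass. The 6 markers of liver, muscle, neurons, epithelium and mesenchyme summed to 18.9 to 115 CPM in resistant and 18.4 to 27.4 CPM in sensitive libraries, and 2 of them had counts in every library. Of these 6, miR-143-3p, a mesenchymal marker, had 101, 111 and 13.7 CPM in resistant and 15.1, 10.2 and 24.4 CPM in sensitive replicates 1 to 3. It did not pass with all libraries (2.19 on the log2 scale, SE 0.77, edgeR adjusted p = 0.136). It rose without resistant replicate 3 (2.75, SE 0.33, edgeR adjusted p = 9.62e-05). miR-122-5p and miR-1-3p passed in neither fit, and the rest of these markers were too low to be tested. The part of these shifts in the results was not tested. In bulk RNA a smaller share of cells with a miRNA and a lower level per cell cannot be told apart.

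With all 6 libraries, 0 of the 4 tested passenger strands passed the test in either direction, beside 4.17% of all 768 tested miRNAs, with 2.08% called higher and 2.08% lower (edgeR's quasi-likelihood test, Benjamini-Hochberg adjusted over the table at a threshold of 0.05). Before adjustment, 1 of the 4, let-7d-3p, had p under 0.05, as did 26.7% of all tested. DESeq2 called 1 of the 4 higher, also let-7d-3p, where it called 12.8% of all tested higher. The log2 fold changes, resistant over sensitive, were above 0 for all 4 and for 46.2% of all tested, with a median of 0.99 against -0.11 over all tested miRNAs. Without resistant replicate 3, let-7a-3p and let-7f-2-3p rose and the other 2 did not pass, in a fit that called 13.7% of 822 miRNAs higher. All 4 were again above 0 there, as were 52.2% of all tested. The groups did not overlap in CPM for 1 of the 4, let-7d-3p, and for 41.8% of all tested (18.9% with the resistant libraries higher). The 9 guide strands of the family, miR-98-5p included, were all tested. Of these, 4 rose with all libraries and 8 without resistant replicate 3, where 2.08% and 13.7% of all tested rose. When any other library was left out, 0 to 3 rose, in fits that called 0.125% to 2.04% of all tested higher. The count was 2 with RLE factors (DESeq2's scaling) or a minimum mean of 10 CPM, where 1.17% and 1.7% of all tested rose. It was 1 with a replicate block (1.04% of all tested) and 7 with DESeq2 (12.8%). With a correction for GC content, added once the values had been seen, it was 8 (6.2%). Their groups did not overlap for 8 of the 9.

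**Figure D1:**
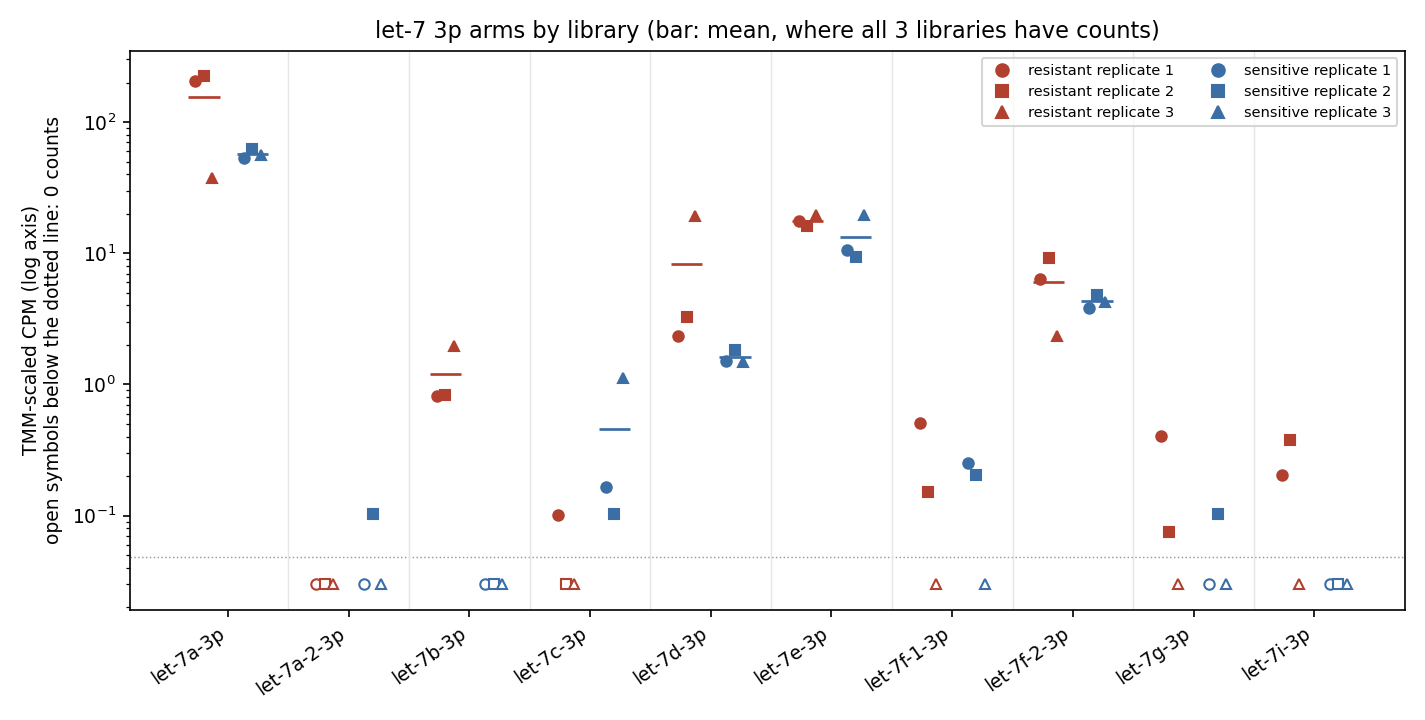
The plot of CPM (log axis) gives each of the 10 let-7 3p arms in each library, resistant in red and sensitive in blue, with a bar at the mean where all 3 libraries of a group had counts and open symbols for 0 counts. let-7a-3p sits at 206 and 224 CPM in resistant replicates 1 and 2 and at 37.7 CPM in resistant replicate 3, while let-7b-3p has open symbols in all 3 sensitive libraries.

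let-7a-3p was the most abundant passenger strand. It held 87.9%, 88.2% and 46.6% of all passenger strand counts in resistant replicates 1 to 3, and 76.5%, 78.9% and 68.1% in sensitive replicates 1 to 3. Its level was 206, 224 and 37.7 CPM in resistant replicates 1 to 3 (2025, 2965 and 96 counts), against 53.4, 61.8 and 56.4 CPM in sensitive replicates 1 to 3 (641, 605 and 305 counts). Both deep resistant libraries were far above every sensitive library, and resistant replicate 3 was below all of them, so the groups overlapped. The log2 fold change was 1.45 (SE 0.64, edgeR adjusted p = 0.190). Without resistant replicate 3 it was 1.96 (SE 0.22, edgeR adjusted p = 5.26e-05), a 3.90-fold rise. let-7a-5p, its guide, showed no such drop in that library, with 5592, 5429 and 10752 CPM in resistant and 1324, 1329 and 1133 CPM in sensitive replicates 1 to 3. Without resistant replicate 3 the guide rose 4.53-fold (2.18 on the log2 scale, SE 0.18, edgeR adjusted p = 4.17e-06).

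On chromosome 9 the neighbours of MIRLET7A1 gave far fewer passenger counts. let-7d-3p had 2.34, 3.24 and 19.2 CPM in resistant replicates 1 to 3 (23, 43 and 49 counts), against 1.5, 1.84 and 1.48 CPM in sensitive replicates 1 to 3 (18, 18 and 8 counts). Every resistant library was above every sensitive one, and resistant replicate 3 was the highest by far. The log2 fold change was 2.27 with all libraries (SE 0.85, edgeR adjusted p = 0.152) and 0.85 without resistant replicate 3 (SE 0.38, edgeR adjusted p = 0.118), so neither fit called it. let-7d-5p, the guide of the same hairpin, rose 4.54-fold with all libraries (edgeR adjusted p = 0.0482, and 0.0628 with RLE factors) and 3.37-fold without resistant replicate 3 (edgeR adjusted p = 0.000311).

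let-7f-1-3p, whose hairpin is the nearest neighbour of MIRLET7A1, had 5, 2 and 0 counts in resistant replicates 1 to 3 and 3, 2 and 0 counts in sensitive replicates 1 to 3. The strand was too low to be tested. It gave a ratio of 1.79 in its share of all deposited counts, resistant over sensitive, with an exact 95% interval of 0.489 to 7.15 that covers counting error only, and 2.10 (0.574 to 8.39) without resistant replicate 3. The groups overlapped, and a difference was not detectable at this depth. The same ratio for let-7a-3p, 4.19 over all libraries or 4.83 when resistant replicate 3 was left out, lay inside both intervals of let-7f-1-3p.

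On chromosome 22, let-7b-3p had 8, 11 and 5 counts in resistant replicates 1 to 3 and 0 counts in each sensitive library. It was the member with counts in every library of 1 group and in none of the other. Over the groups, 24 counts in 22242200 stood against 0 counts in 28421963. Set against a floor of 3 counts over the sensitive group, the resistant share was 10.2-fold higher, or 9.5-fold without resistant replicate 3. These ratios leave out the counting error of the resistant counts, so they are not lower limits. The exact 95% intervals, in CPM of the deposited totals, were 0.691 to 1.61 in resistant and 0 to 0.130 in sensitive cells. They did not overlap, and cover counting error only. let-7b-3p was below the filter of the main test. In the fit without a filter it passed (edgeR adjusted p = 0.00269), as did 6.63% of the 1734 miRNAs there in the same direction. Its guide let-7b-5p was at 90.1, 86.5 and 357 CPM in resistant and 9.07, 8.27 and 6.29 CPM in sensitive replicates 1 to 3, and rose 22.4-fold with all libraries (edgeR adjusted p = 0.0154) and 11.5-fold without resistant replicate 3 (3.52 on the log2 scale, SE 0.26, edgeR adjusted p = 2.12e-06). The other miRNAs of that locus, miR-4763-5p and miR-4763-3p, had 0 counts in all 6 libraries.

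On chromosome 21 the passenger strand and the guide of let-7c had ratios on opposite sides of 1. MIRLET7C (16539828 to 16539911, plus strand) lies 658 bases after MIR99A in an intron of MIR99AHG, a long non-coding RNA that also hosts MIR125B2. let-7c-3p had 1, 0 and 0 counts in resistant replicates 1 to 3 and 2, 1 and 6 counts in sensitive replicates 1 to 3. Its ratio of such shares was 0.142, with an exact 95% interval of 0.00324 to 1.02 for counting error only, or 0.167 (0.00380 to 1.20) without resistant replicate 3, and 6 of the 9 sensitive counts came from 1 library. let-7c-5p had 441, 455 and 1425 CPM in resistant and 107, 120 and 122 CPM in sensitive replicates 1 to 3, with a rise of 6.65-fold with all libraries (edgeR adjusted p = 0.0467, and 0.0628 with RLE factors) and of 4.0-fold without resistant replicate 3 (SE 0.21 on the log2 scale, edgeR adjusted p = 2.36e-05). Neighbours from the same host gene had lower levels or too few counts to be tested. miR-99a-5p, a miRNA of blood stem and progenitor cells, fell to 15.6, 21.7 and 12.2 CPM in resistant cells, against 394, 278 and 440 CPM in sensitive cells, a log2 fold change of -4.48 (SE 0.47) with edgeR adjusted p = 0.00219. miR-125b-2-3p, the passenger strand of MIR125B2, had 4, 5 and 0 counts in resistant and 32, 14 and 24 counts in sensitive replicates 1 to 3. It missed the threshold with all libraries (-3.02 on the log2 scale, SE 0.72, edgeR adjusted p = 0.0569) and fell without resistant replicate 3 (-2.70, SE 0.61, edgeR adjusted p = 0.00657). miR-99a-3p, with 1, 1 and 0 counts in resistant and 7, 0 and 0 counts in sensitive replicates 1 to 3, was not tested, and its groups overlapped. let-7c-5p differs from the far more abundant let-7a-5p at 1 base. let-7e-5p and let-7f-5p also differ from let-7a-5p at 1 base, and let-7b-5p differs from let-7c-5p at 1 base. How reads that match both arms of such a pair were counted is not given in the sources used here.

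On chromosome 11, let-7a-2-3p had 0 counts in the 3 resistant libraries and 0, 1 and 0 counts in sensitive replicates 1 to 3, which is at or under the floor in both groups. MIRLET7A2 (122146522 to 122146593, minus strand) lies in an intron of MIR100HG, 5635 bases from MIR100. miR-100-5p, whose family is close to miR-99a, had 13, 11 and 0 counts in resistant and 45, 49 and 12 counts in sensitive replicates 1 to 3. It did not pass with all libraries (-2.10 on the log2 scale, SE 0.71, edgeR adjusted p = 0.134) and fell without resistant replicate 3 (-1.76, SE 0.45, edgeR adjusted p = 0.0125). miR-100-3p had 0 counts throughout, and miR-125b-1-3p had 1 count, in resistant replicate 3. The passenger strand of let-7a-2 thus gave a single count beside 1551 counts of let-7a-3p over the sensitive libraries.

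On chromosome 19, let-7e-3p was the second most abundant passenger strand. MIRLET7E (51692786 to 51692864, plus strand) lies in an intron of SPACA6, 104 bases after MIR99B and 389 bases before MIR125A, and overlaps an exon of SPACA6P-AS on the other strand. let-7e-3p had 17.6, 16 and 19.6 CPM in resistant replicates 1 to 3 (173, 212 and 50 counts), against 10.7, 9.40 and 19.6 CPM in sensitive replicates 1 to 3 (128, 92 and 106 counts). Sensitive replicate 3 lay within the resistant range, so the groups overlapped, and the means were 17.7 ± 1.83 CPM in resistant and 13.2 ± 5.57 CPM in sensitive cells (SD, n = 3 each). The log2 fold change was 0.43 with all libraries (SE 0.43, edgeR adjusted p = 0.544) and 0.42 without resistant replicate 3 (SE 0.33, edgeR adjusted p = 0.392). The guide let-7e-5p passed in neither fit. Its log2 fold change was 1.14 with all libraries (SE 0.59, edgeR adjusted p = 0.238) and 0.27 without resistant replicate 3 (SE 0.21, edgeR adjusted p = 0.392). No arm of the neighbours of MIRLET7E passed in either fit. With all libraries the log2 fold changes were 0.27 for miR-99b-5p, 1.14 for miR-99b-3p, 0.00 for miR-125a-5p and 1.3 for miR-125a-3p. Leaving out resistant replicate 3 gave 0.22 for miR-99b-5p, 0.47 for miR-99b-3p, -0.45 for miR-125a-5p and 0.11 for miR-125a-3p.

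On the X chromosome, let-7f-2-3p had 6.41, 9.21 and 2.36 CPM in resistant replicates 1 to 3 (63, 122 and 6 counts), against 3.83, 4.8 and 4.26 CPM in sensitive replicates 1 to 3 (46, 47 and 23 counts). As for let-7a-3p, resistant replicates 1 and 2 were above all sensitive libraries and resistant replicate 3 below them. The log2 fold change was 0.53 with all libraries (SE 0.53, edgeR adjusted p = 0.543), and without resistant replicate 3 the strand rose 1.90-fold (0.93, SE 0.31, edgeR adjusted p = 0.0414). The guide let-7f-5p, made by both MIRLET7F1 and MIRLET7F2, did not pass with all libraries (0.41 on the log2 scale, SE 0.47, edgeR adjusted p = 0.599). Without resistant replicate 3 let-7f-5p rose (0.79, SE 0.21, edgeR adjusted p = 0.0149). MIRLET7F2 (53557192 to 53557274, minus strand) lies in an intron of HUWE1 beside MIR98, which makes miR-98-5p, a guide of the let-7 family. miR-98-5p had 26.5, 22 and 19.6 CPM in resistant and 10.2, 10.4 and 9.81 CPM in sensitive replicates 1 to 3, with no overlap, and rose 2.47-fold without resistant replicate 3 (1.3, SE 0.25, edgeR adjusted p = 0.00245). With all libraries it missed the threshold (1.16, SE 0.37, edgeR adjusted p = 0.130). Its passenger strand miR-98-3p had 3, 8 and 0 counts in resistant and 3, 0 and 4 counts in sensitive replicates 1 to 3, and was not tested.

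The last 2 members come from hairpins on chromosomes 3 and 12 and gave a handful of counts. let-7g-3p, from MIRLET7G in an intron of WDR82, had 4, 1 and 0 counts in resistant and 0, 1 and 0 counts in sensitive replicates 1 to 3. Its ratio of 6.39 had an exact 95% interval of 0.715 to 302, or 7.5 (0.839 to 355) without resistant replicate 3, so a difference was not detectable at this depth. let-7i-3p, from MIRLET7I, had 2, 5 and 0 counts in resistant replicates 1 to 3 and 0 counts in each sensitive library. Set against the same floor of 3 counts, the resistant share was 2.98-fold higher, or 3.50-fold without resistant replicate 3. These ratios leave out the counting error of the resistant counts, so they are not lower limits. The exact 95% intervals, in CPM of the deposited totals, were 0.127 to 0.648 in resistant and 0 to 0.130 in sensitive cells. They overlapped, so a difference was not shown by these counts. In the fit without a filter let-7i-3p did not pass (edgeR adjusted p = 0.191). Their guides rose in the fit without resistant replicate 3, let-7g-5p 2.07-fold (edgeR adjusted p = 0.00199) and let-7i-5p 2.08-fold (edgeR adjusted p = 0.00377), and missed the threshold with all libraries (edgeR adjusted p = 0.149 and 0.134). A floor of 3 counts per library stood at 0.282 to 0.911 CPM of the deposited totals in resistant and at 0.239 to 0.530 in sensitive libraries.

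**Figure D2:**
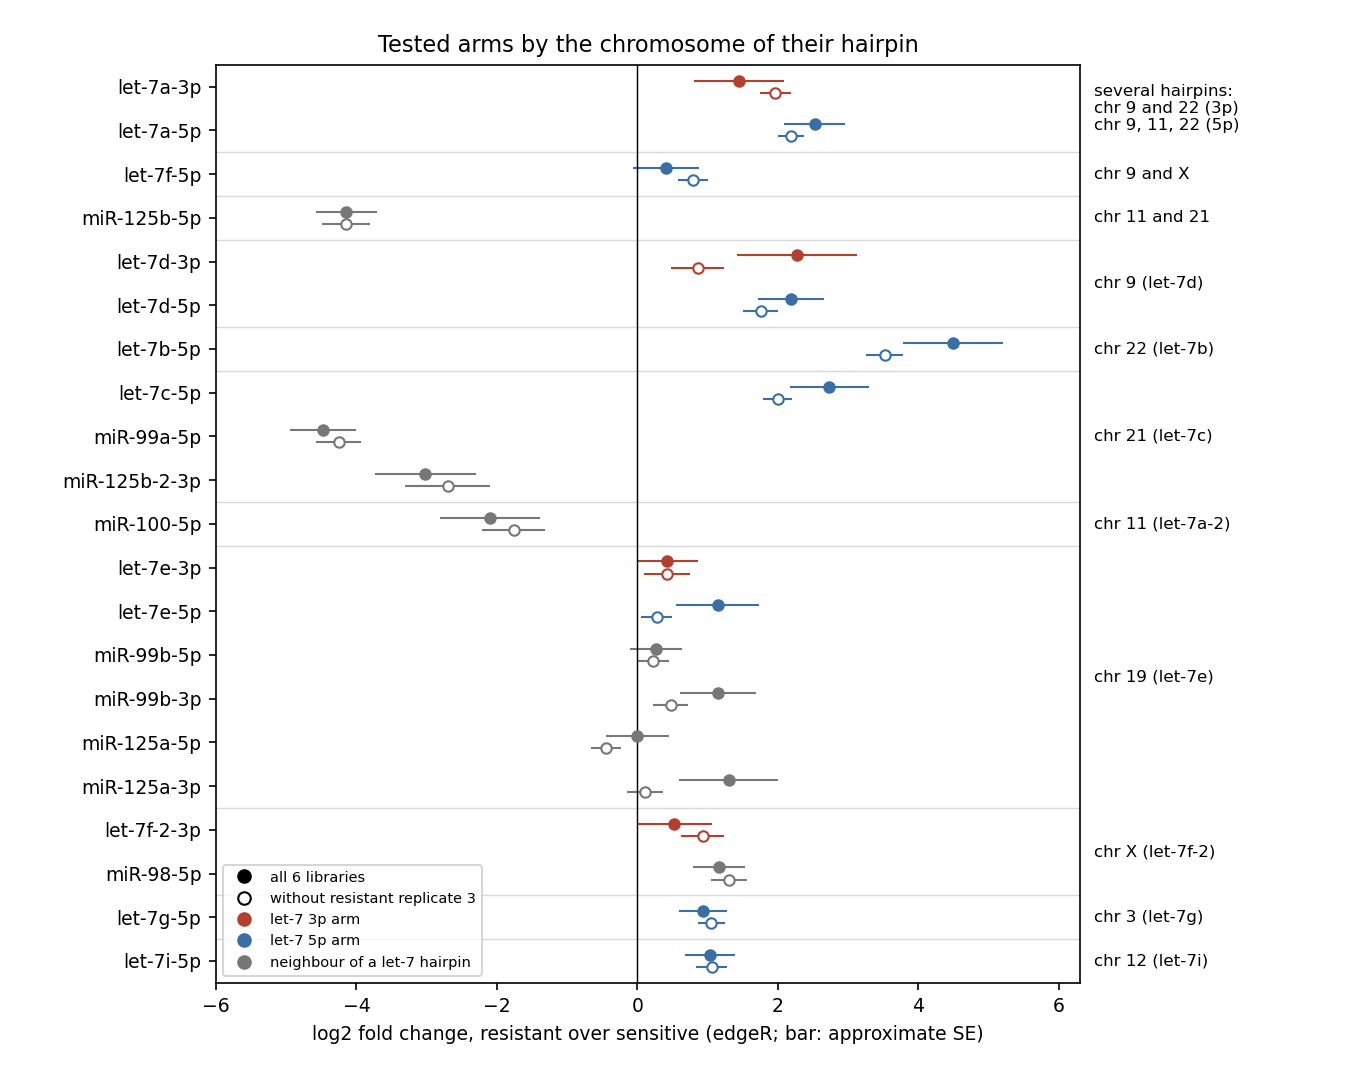
The plot of log2 fold changes, resistant over sensitive with approximate SE, sets every tested let-7 3p arm (red), let-7 5p arm (blue) and neighbouring miRNA (grey) beside the chromosome of its hairpin, with filled points for all 6 libraries and open points without resistant replicate 3. On chromosome 21 let-7c-5p lies at 2.73 while miR-99a-5p lies at -4.48 and miR-125b-2-3p at -3.02, and let-7d-3p moves to 0.85 from 2.27 when resistant replicate 3 is left out.

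Across the loci, the list of 15 neighbours had 9 tested members, of which 0 rose and 2 fell with all libraries, miR-99a-5p and miR-125b-5p, where 2.08% of all tested fell, with a median log2 fold change of 0.00 against -0.11 over all tested miRNAs. Without resistant replicate 3, 1 rose, miR-98-5p, which is also counted among the guide strands, where 13.7% of all tested rose. In that fit 4 fell, where 14.4% of all tested fell, with a median of -0.45 against 0.04 over all. The 4 that fell were miR-99a-5p, miR-125b-5p, miR-125b-2-3p and miR-100-5p, all from the hosts on chromosomes 11 and 21. miR-125b-5p is made at both loci.

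The share of a let-7 name's counts that came from its 3p arm does not depend on library scaling. For let-7a it sums let-7a-3p and let-7a-2-3p, beside a 5p arm that MIRLET7A1, MIRLET7A2 and MIRLET7A3 all make. The let-7a share is therefore not the arm use of a single locus. For let-7a the share was 3.55%, 3.96% and 0.350% in the 3 resistant libraries (exact 95% bounds of 3.40% to 3.71%, 3.82% to 4.10% and 0.283% to 0.427%), against 3.87%, 4.45% and 4.75% in the 3 sensitive libraries (exact 95% bounds of 3.59% to 4.18%, 4.11% to 4.81% and 4.24% to 5.29%). The deep resistant libraries were within or just below the sensitive range and resistant replicate 3 was far below it. The difference in means was -1.74 percentage points (exact two-sided permutation p = 0.2) and -0.60 points without resistant replicate 3. For let-7d, the name with the largest 3p share of the 8, the order was the other way round in that library. Its share was 6.42%, 8.79% and 20.4% in the 3 resistant libraries (by exact 95% intervals, 4.12% to 9.48%, 6.44% to 11.7% and 15.5% to 26.1%) and 12.4%, 14.9% and 12.7% in the 3 sensitive libraries (exact 95% bounds of 7.53% to 18.9%, 9.06% to 22.5% and 5.65% to 23.5%). Resistant replicates 1 and 2 were below all sensitive libraries and resistant replicate 3 above them. The difference in means was -1.45 percentage points (exact two-sided permutation p = 0.8) and -5.72 points without resistant replicate 3, the widest move among the 8 names.

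For let-7b the 3p share was 0.896%, 0.95% and 0.547% in the 3 resistant libraries (by exact 95% intervals, 0.388% to 1.76%, 0.475% to 1.69% and 0.178% to 1.27%). In the sensitive libraries it was 0 of 109, 81 and 34 counts, which allow shares of up to 2.75%, 3.70% and 8.82% by the floor of 3 counts (exact 95% upper bounds 3.33%, 4.45% and 10.3%). The absence of let-7b-3p counts in sensitive cells therefore does not show a different arm use, since the guide was low there too. For let-7c the share was 0.0231%, 0% and 0% in resistant replicates 1 to 3 and 0.155%, 0.0850% and 0.904% in sensitive replicates 1 to 3, with no overlap. The sensitive shares rest on 2, 1 and 6 counts. Their exact 95% intervals were 0.0188% to 0.560%, 0.00215% to 0.472% and 0.332% to 1.96%. The resistant zeros, in 6030 and 3627 counts of both arms, allow shares of up to 0.0498% and 0.0827% by the floor of 3 counts. The exact 95% upper bounds of these zeros were 0.0612% and 0.102%, and the second of these passes the lowest sensitive share. The upper bound of resistant replicate 1, 0.128%, passes it too. With 3 libraries against 3 the exact two-sided permutation p cannot go under 0.1, the value found for let-7b and for let-7c, and 0 of the 8 names passed after adjustment (adjusted p = 0.4 for both in the exact permutation test).

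let-7e had a 3p share of 2.63 ± 1.32% in resistant and 3.08 ± 0.991% in sensitive cells, and let-7f, with both of its 3p arms summed, of 0.431 ± 0.118% in resistant and 0.432 ± 0.0756% in sensitive cells (SD, n = 3 each). Both differed by less than the spread between replicates. Leaving out resistant replicate 3 gave differences of 0.32 points for let-7e, against -0.45 with it, and 0.04 points for let-7f. For let-7g and let-7i the shares reached at most 0.0381% and 0.147%, each in a resistant library. By the floor of 3 counts, the let-7g zeros in sensitive replicates 1 and 3 allow up to 0.0478% and 0.117%. The let-7i zeros in sensitive replicates 1 to 3 allow up to 0.174%, 0.224% and 0.351%. All of these limits were above the resistant maximum of the same name. Summed over the family, passenger strands made up 2.32%, 2.64% and 0.496% of the let-7 counts in resistant replicates 1 to 3 and 1.86%, 2.08% and 2.54% in sensitive replicates 1 to 3. Without resistant replicate 3 the difference in means was 0.32 percentage points, against -0.34 with it. With let-7a left out of the family the difference was -0.18 points without resistant replicate 3 and -0.16 points with it, so the change of sign came with let-7a.

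**Figure D3:**
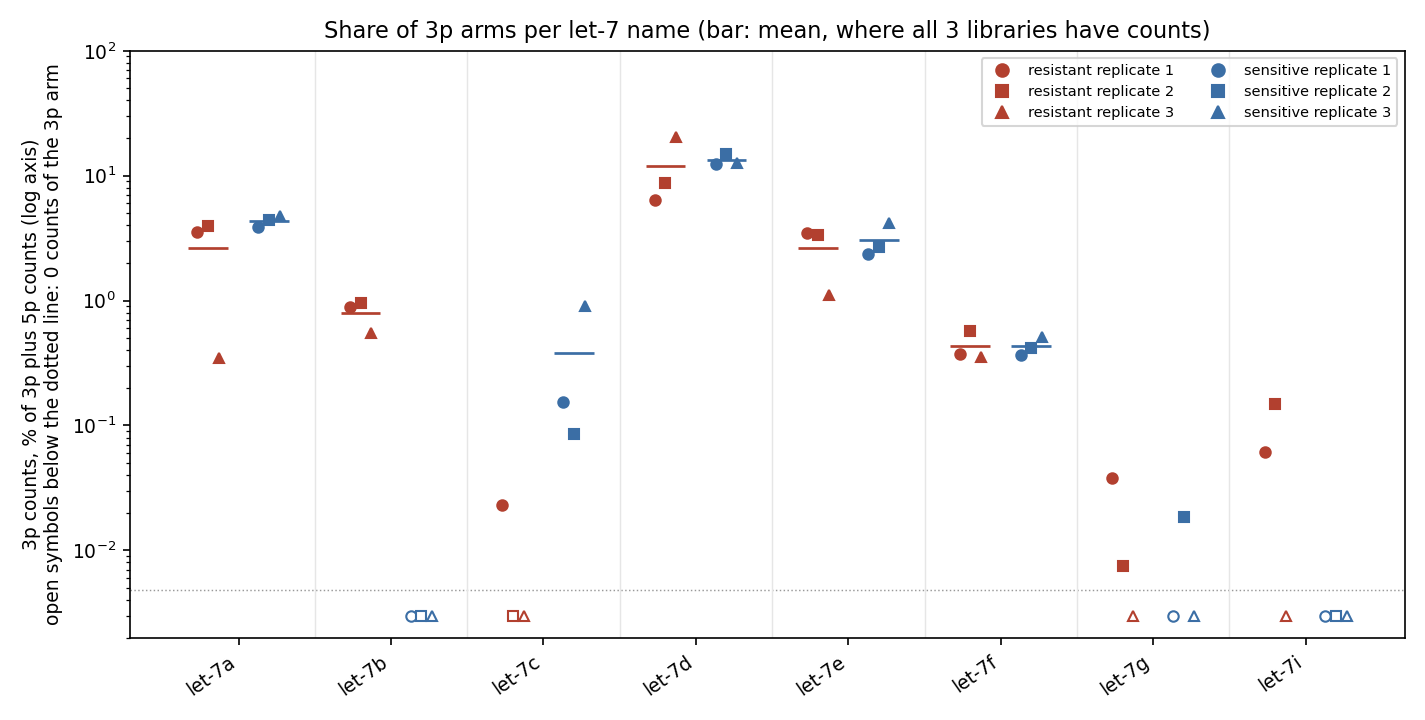
The plot of 3p counts as a percent of 3p plus 5p counts (log axis) gives each let-7 name in each library, resistant in red and sensitive in blue, with a bar at the mean where all 3 libraries had 3p counts and open symbols for 0. let-7d has the largest shares, at 6.42% to 20.4% in resistant and 12.4% to 14.9% in sensitive libraries, and the let-7a share of 0.350% in resistant replicate 3 lies far below the other 5 libraries.

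Set beside the other hairpins in the table, the difference of the 3p and 5p log2 fold changes was -1.08 for let-7a-3p, -0.71 for let-7e-3p, 0.09 for let-7d-3p and 0.12 for let-7f-2-3p with all libraries. Over the 222 names with both arms tested the median was -0.08, with quartiles of -0.67 and 0.51. Without resistant replicate 3 the differences were -0.22 for let-7a-3p, 0.15 for let-7e-3p, -0.90 for let-7d-3p and 0.14 for let-7f-2-3p, where the median of 236 names was -0.01 with quartiles of -0.46 and 0.34. In that fit let-7d-3p was thus the tested member outside the quartiles, and the differences of the other 3 lay within them.

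Resistant replicate 3 also differed from its group by base composition. Over the 677 tested miRNAs with a sequence (88.2% of 768), its deviation from resistant replicates 1 and 2 rose with GC content (Spearman's rho 0.715 across miRNAs, which are not independent replicates). let-7a-3p has a GC content of 33.3% and deviated by -2.50 on the log2 CPM scale. let-7d-3p, at 50% GC, deviated by 2.71. let-7e-3p, at 54.5% GC, deviated by 0.22, and let-7f-2-3p by -1.61. Of the guides, let-7a-5p (36.4% GC) deviated by 0.96, let-7b-5p (45.5% GC) by 2.01 and let-7f-5p (31.8% GC) by -1.38. When GC content was corrected for in a fit of the 6 libraries, a setting added once the values had been seen, let-7a-3p rose (2.10 on the log2 scale, SE 0.28, edgeR adjusted p = 0.00393) where 6.2% of 677 miRNAs were called higher. let-7d-3p (2.23, SE 0.82, edgeR adjusted p = 0.117) and let-7e-3p (0.10, SE 0.36, edgeR adjusted p = 0.875) did not pass there. The part of base composition in these results was not tested further.

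**Figure D4:**
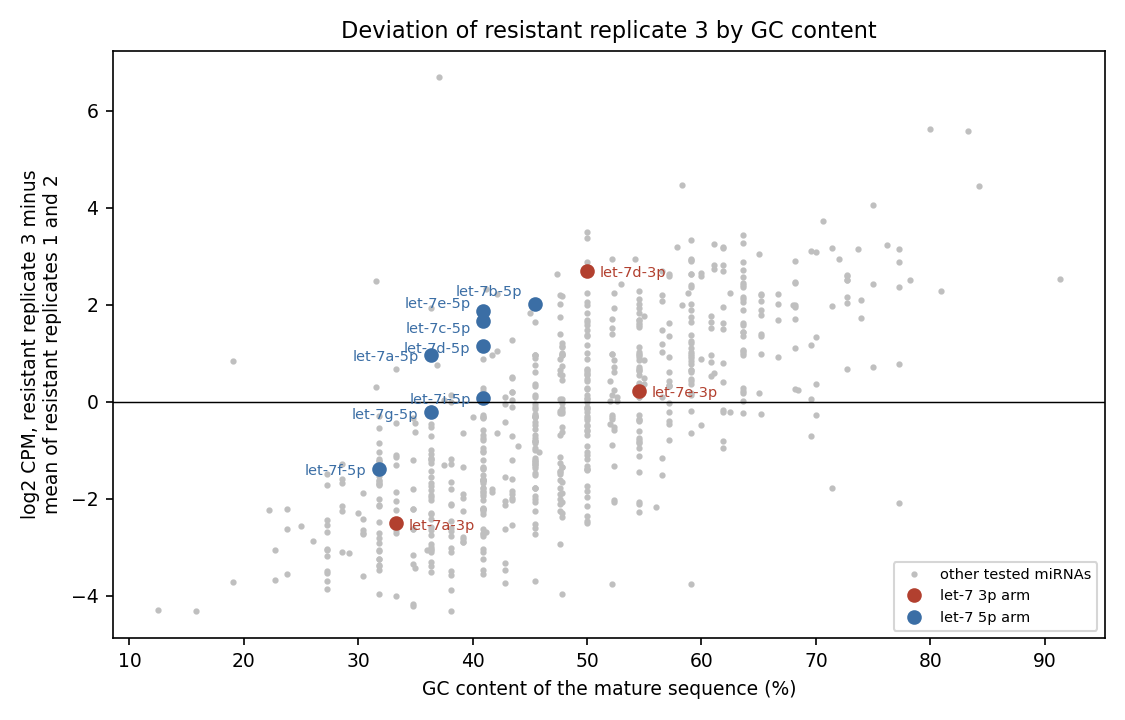
The plot sets the log2 CPM of resistant replicate 3 minus the mean of resistant replicates 1 and 2 against the GC content of the mature sequence for 677 tested miRNAs, with let-7 3p arms in red and let-7 5p arms in blue. The cloud rises with GC content, let-7a-3p lies at -2.50 with 33.3% GC, and let-7d-3p lies at 2.71 with 50% GC.

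The miRNAs whose levels over the 6 libraries were most like those of let-7a-3p were miR-196a-3p, miR-10b-5p and miR-10399-5p, by the mean absolute difference of log2 CPM centred on each miRNA's own mean. That difference was 0.165 for miR-196a-3p, 0.264 for miR-10b-5p and 0.282 for miR-10399-5p, against a median of 1.06 over the other tested miRNAs. miR-196a-3p had 16.3, 18.0 and 3.93 CPM in resistant and 4.08, 3.47 and 4.07 CPM in sensitive replicates 1 to 3. As the choice by likeness to let-7a-3p largely fixes, all 3 were highest in resistant replicates 1 and 2, missed the threshold with all libraries, and passed without resistant replicate 3 (edgeR adjusted p = 0.000130, 0.000271 and 0.00148).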

How the data were processed

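The authors deposited raw read counts per mature miRNA, 1 column per library, and the submitters' processing notes name GRCh38. The program that aligned and counted reads, the miRNA annotation, and the rule for reads matching several miRNAs are items not given in the sources used here. Per the labels' protocols, small RNA libraries came from a NEBNext kit with no stated molecular identifiers, so intervals cover counting error only. Counts were tested with edgeR 4.0.16 in R 4.3.3 over the whole table: filterByExpr (minimum count 10, minimum total 15), trimmed mean of M values (TMM) factors, quasi-likelihood F test without covariates, Benjamini-Hochberg threshold 0.05. DESeq2 1.42.0 and limma 3.58.1 were alternatives, and the fit was checked on simulated data. SE is the absolute log2 fold change over the square root of F. Replicate pairs differed by 124 to 4015 in chi-square per degree of freedom, so none agreed within sampling noise. Intervals are exact at 95%, binomial or Poisson, and ratios of low counts use deposited totals. Guide strands and neighbours are lists fixed by family and locus. Text names the members, those lists, and the 3 miRNAs most like the most abundant member. The members and lists were chosen with earlier results of these data known. Hairpin positions are from RefSeq, overlaps from GENCODE 29 on GRCh38.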

Additional observations from a re-analysis of the deposited data

How the results depend on the processing

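The number of passenger strands called higher was 0 with all libraries in edgeR. It was also 0 with RLE factors, library totals, a minimum mean of 10 CPM (2 of the 4 left), limma-voom and the replicate number as a block. It was 2 of 10 without a filter (let-7b-3p and let-7d-3p), where 6.63% of 1734 miRNAs were called higher. With DESeq2 it was 1 of 4 (let-7d-3p), beside 12.8% of 768. A GC correction added once the data had been seen gave 1 of 3 (let-7a-3p), beside 6.2% of 677. let-7f-2-3p, with no sequence, was not in that fit. Leaving out 1 library gave 0 to 2. The 2, let-7a-3p and let-7f-2-3p, came without resistant replicate 3, where 13.7% of 822 miRNAs were called higher. No passenger strand was called lower under any of these settings. The log2 fold changes stayed above 0 in each fit that held the strand, let-7a-3p between 1.07 and 2.10, let-7d-3p between 0.85 and 3.0, let-7e-3p between 0.10 and 0.89 and let-7f-2-3p between 0.23 and 0.93. The median of all miRNAs was -0.11 with TMM factors and 0.09 with library totals. In all, 32 miRNAs were called, 16 in each direction, against 21 with RLE factors, 14 with a minimum of 10 CPM, 162 without a filter, 149 with DESeq2, 75 with the GC correction, and 4 to 231 when 1 library was left out. Summed CPM of the 10 strands was 112.7 higher in resistant cells, 80.7 to 167 when 1 library was left out, and 14 without let-7a-3p. The means were 190 ± 94.7 CPM in resistant and 77.0 ± 6.67 CPM in sensitive cells (SD). The groups overlapped, with 80.9 CPM in resistant replicate 3 and 82.9 CPM in sensitive replicate 3, and the sum was not tested. The 3p percent of the family ran from -0.75 to 0.32 points when 1 library was left out. Same-numbered libraries correlated in their deviations at -0.06, 0.26 and 0.13, and differently numbered ones at -0.24 to 0.20. With so few libraries these values cannot decide whether the numbers mark pairs. The main fit did not take them as pairs. With the replicate number as a block, 23 miRNAs were called and the mean difference in family 3p percent was -0.34. Low counts, 0 to 11 per library, kept 6 members out of the test.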
